A study of Rattus norvegicus with 6 samples.

Results

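Genes that drive and carry out mitosis were examined in rat liver tissue from 2 groups of 3 RNA sequencing libraries, HCC and TAE. The members were 34 named genes for mitotic kinases, cyclins, kinetochore and spindle proteins and cytokinesis factors, taken from the deposited table by gene symbol. Of these, 33 were among its 32623 genes, and Ccnb2, which encodes a second B-type cyclin, had no row under that symbol and was skipped. All 33 had enough reads to be among the 14499 genes tested, with 257 to 8873 reads per library. The HCC group belonged to a hepatocellular carcinoma study and, as controls, its animals were left untreated. Rats of the TAE group had transarterial embolization, a procedure that cuts off a liver tumour's arterial blood supply. The sources used here do not give rat strain, sex, age, how tumours were raised, the time after embolization, or whether tumour or surrounding liver was taken. The labels call the replicates biosamples and name no animals. The p-values therefore reflect the spread among these libraries, and that spread may be technical.

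A dividing cell enters mitosis when cyclin B and the kinase CDK1 form an active complex. Aurora and Polo-like kinases then build the spindle, kinetochores tie chromosomes to its microtubules, and the anaphase-promoting complex ends the process by marking securin and cyclin B for destruction. The genes for these proteins are transcribed together late in the cell cycle, many of them from promoters that carry a cell cycle genes homology region (CHR) and CCAAT boxes, and are silent in resting cells. Adult hepatocytes rarely divide, whereas hepatocellular carcinoma, regenerating liver and expanding immune cells express them. In bulk tissue, fewer dividing cells and less RNA per dividing cell cannot be told apart.

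Each library held 13448286 to 16604067 counted reads, and TAE libraries were the more spread out. Across all tested genes the median standard deviation of log2 CPM (reads of a gene relative to its library's total after TMM scaling, which aligns the bulk of genes between libraries) was 0.14 within HCC and 0.33 within TAE. For the mitosis genes it was 0.07 within HCC and 0.77 within TAE, and it was wider in TAE for 33 of 33, beside 81.5% of all tested genes. TAE library 3 stood apart, so results are given with and without it. Hepatocyte markers were present in all libraries, with a summed level of 10386 to 30514 FPKM (reads scaled to exon length and to the library's total) over 14 markers.

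The promoters of the members are shown because every member was lowest in the same library, TAE library 3. A promoter window from 250 bases before to 50 bases after the annotated start was present in RefSeq (build GRCr8) for 27 of the 33 members. Ccna2, Foxm1, Aurkb, Incenp, Tpx2 and Ube2c had no entry. Windows were searched on both strands for the letters TTTGAA, a form of the CHR core, and for the letters CCAAT. In the printed strand, matches on the other strand read as TTCAAA in the first case and as ATTGG in the second. Other forms of the CHR were not searched, so a window without TTTGAA may still hold a CHR. The 250 bases before the start are printed 5′ to 3′ for 6 members, with matches to either motif in capitals. These 6 are the kinase that starts mitosis (Cdk1), the activator of anaphase (Cdc20), the member with the highest mean FPKM in HCC (Top2a), the member lowest in TAE library 3 relative to HCC (Anln), the usual proliferation marker (Mki67) and a cyclin whose window had CCAAT boxes but no TTTGAA (Ccnb1).
Cdk1 (GRCr8 chr20:19265043-19265292, plus strand): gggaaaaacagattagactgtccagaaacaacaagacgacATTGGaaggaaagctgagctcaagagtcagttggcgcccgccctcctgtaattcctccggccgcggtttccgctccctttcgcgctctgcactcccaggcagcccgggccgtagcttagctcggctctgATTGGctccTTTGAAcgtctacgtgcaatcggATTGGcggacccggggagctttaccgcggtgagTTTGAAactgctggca
Cdc20 (GRCr8 chr5:137255800-137256049, minus strand): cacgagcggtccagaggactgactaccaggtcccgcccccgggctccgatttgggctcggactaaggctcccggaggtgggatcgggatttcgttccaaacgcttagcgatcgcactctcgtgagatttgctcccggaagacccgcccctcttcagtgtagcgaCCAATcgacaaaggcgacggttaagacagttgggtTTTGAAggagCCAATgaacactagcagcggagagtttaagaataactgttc
Top2a (GRCr8 chr10:84473094-84473343, minus strand): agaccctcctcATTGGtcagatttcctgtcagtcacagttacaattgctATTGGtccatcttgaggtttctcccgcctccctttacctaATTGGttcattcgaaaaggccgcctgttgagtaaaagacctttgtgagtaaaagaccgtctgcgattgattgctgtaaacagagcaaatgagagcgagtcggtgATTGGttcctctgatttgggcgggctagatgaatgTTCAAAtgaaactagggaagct
Anln (GRCr8 chr8:29197514-29197763, minus strand): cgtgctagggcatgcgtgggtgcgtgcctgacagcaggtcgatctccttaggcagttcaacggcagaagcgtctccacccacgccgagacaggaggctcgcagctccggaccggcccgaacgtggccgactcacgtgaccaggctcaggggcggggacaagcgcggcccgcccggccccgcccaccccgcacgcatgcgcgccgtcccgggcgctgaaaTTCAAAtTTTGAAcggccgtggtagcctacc
Mki67 (GRCr8 chr1:199952594-199952843, minus strand): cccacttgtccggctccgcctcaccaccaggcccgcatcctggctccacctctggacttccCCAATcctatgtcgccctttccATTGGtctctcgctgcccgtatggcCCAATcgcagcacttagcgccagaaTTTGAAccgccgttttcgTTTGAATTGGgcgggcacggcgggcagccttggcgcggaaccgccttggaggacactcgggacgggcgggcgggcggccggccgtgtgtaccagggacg
Ccnb1 (GRCr8 chr2:33655226-33655475, minus strand): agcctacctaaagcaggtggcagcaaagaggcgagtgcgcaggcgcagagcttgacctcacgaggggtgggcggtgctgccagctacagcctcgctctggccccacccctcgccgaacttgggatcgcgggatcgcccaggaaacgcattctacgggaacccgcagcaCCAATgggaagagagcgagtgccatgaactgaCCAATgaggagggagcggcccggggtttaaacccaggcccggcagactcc

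TTTGAA was present in 19 of the 28 windows of these 27 members (67.9%; Kif2c has more than 1 annotated start), beside 18.3% of all 33469 windows in the table. CCAAT was likewise present in 19 of 28 windows (67.9%), beside 37.5% of all windows. Both motifs occurred together in 15 windows (53.6%), beside 7.41% of all windows. Member windows had a median GC content of 58.8% and all windows one of 51.7%. Of 23 TTTGAA matches, 21 lay from 100 bases before the start to the end of the window, as did 23 of 45 CCAAT matches. The Mki67 and Cdca8 windows each held a TTTGAA that overlapped an ATTGG, and the Anln window held TTTGAA on both strands near its start without a CCAAT. In TAE library 3 the median difference from the HCC mean was -1.51 on the log2 scale for the 19 members with TTTGAA and -1.46 for the 8 without. A match is a run of letters and does not show that a factor binds it.

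**Figure D1:**
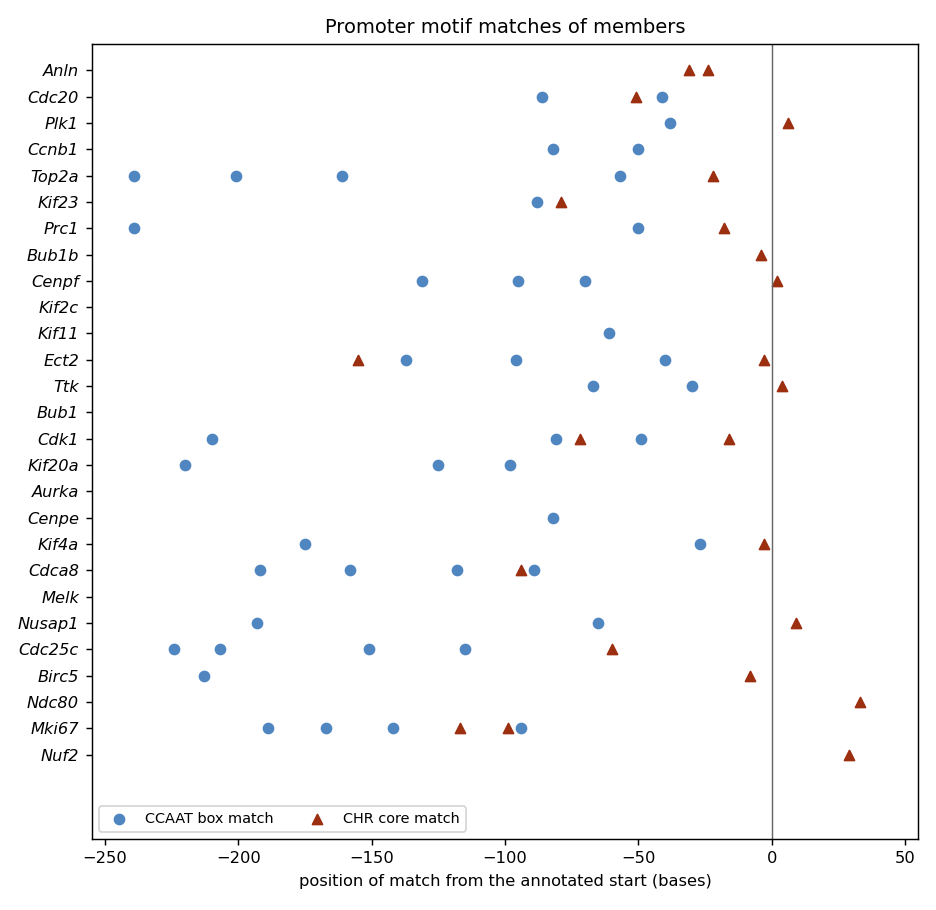
Positions of motif matches (x axis, bases from the annotated start at 0; circles, CCAAT boxes; triangles, the TTTGAA form of the CHR core) in the promoter windows of 27 members (rows, ordered by their level in TAE library 3, lowest on top). Most triangles lie close to the start and circles further upstream, and 4 members have no match to TTTGAA or CCAAT.

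The comparison of TAE with HCC asked whether these genes differed after embolization. All 33 had a negative log2 change, from -0.83 (Anln) to -0.25 (Mki67), with a median of -0.52. The median over all tested genes was -0.03, and 53.1% of them were negative. None of the 33 passed edgeR's quasi-likelihood test with Benjamini-Hochberg adjustment over all genes, with adjusted p from 0.276 to 0.62, and 0 had an unadjusted p under 0.05 (22.7% of all genes did). DESeq2 and limma also called 0. Across all genes, edgeR called 0.31% lower and 2.7% higher in TAE, and 3.01% in either direction. Standard errors of the members' log2 changes were 0.24 to 0.44.

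The TAE libraries differed from each other in these genes, and library 3 was the lowest of all 6 for 33 of 33 members, beside 32.3% of all tested genes. The median difference of the members from the HCC mean there was -1.51 on the log2 scale (range -2.23 to -0.94). In TAE library 1 the median was -0.37 (range -0.7 to 0.09), and 30 of 33 members lay below every HCC library, beside 40.6% of all genes. In TAE library 2 the median was -0.04 (range -0.32 to 0.23), within the HCC libraries' own medians of -0.05 to 0.04, and 12 members lay below every HCC library, beside 33.2% of all genes. For TAE library 3 that count was 33, beside 41.7%. Above every HCC library lay 0 members in TAE library 1 (38.0% of all genes), 5 in library 2 (31.2%) and 0 in library 3 (41.7%). A drop of at least 1 on the log2 scale occurred in TAE library 3 for 31 of 33 members and 8.84% of all genes, and in the other libraries for 0 members.

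**Figure D2:**
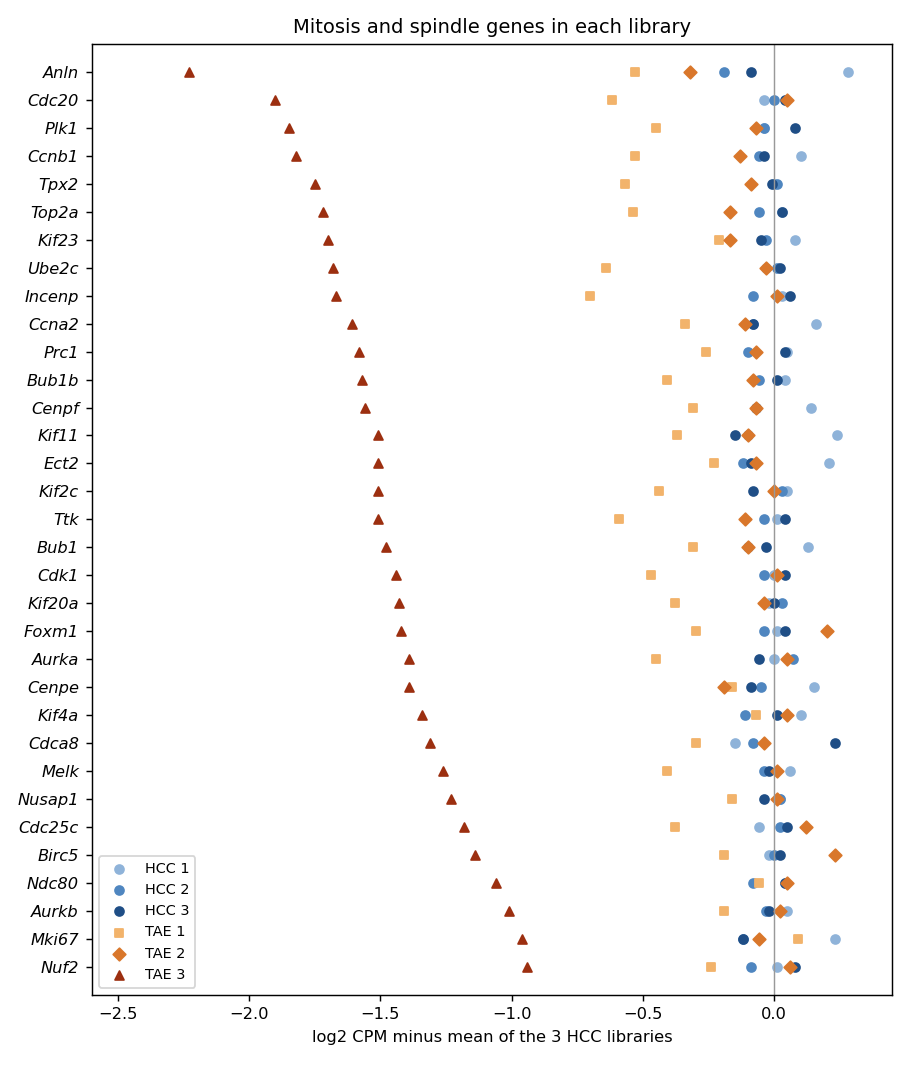
Log2 CPM of each member (rows) in each library minus the mean of the 3 HCC libraries (x axis); circles are HCC, the square, diamond and triangle are TAE libraries 1, 2 and 3. Triangles run from -2.23 (Anln) to -0.94 (Nuf2), left of all other symbols in every row.

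Because TAE library 2 resembled HCC in the mitosis genes, the groups overlapped for most members. All 3 TAE libraries lay below all 3 HCC libraries for 12 of 33 members (36.4%), beside 13.4% of all genes. These were Ccnb1, Ccna2, Plk1, Bub1b, Ttk, Cenpe, Tpx2, Kif23, Kif20a, Anln, Ube2c and Top2a. The count depended on the scaling, as did that of all genes. It was 11 with RLE scaling (13.1% of all genes), 7 with upper-quartile scaling (9.21%) and 0 with library totals alone (5.57%). In FPKM, which is scaled to library totals, TAE library 2 exceeded every HCC library for 21 of 33 members (63.6%), beside 57.1% of all genes, and lay below them for 0, beside 16% of all genes.

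The cyclin and kinase genes of mitotic entry stood lower in TAE libraries 1 and 3. Ccnb1, the cyclin B1 gene (ENSRNOG00000058539, chromosome 2, 30783915 to 30791221), measured 96.3, 85.6 and 84.9 FPKM in HCC libraries 1 to 3 and 65.4, 93.3 and 22.8 FPKM in TAE libraries 1 to 3. TAE library 3 thus held 0.282 of the HCC mean in CPM, and TAE library 2 lay inside the HCC range in FPKM. The fitted log2 change was -0.67 ± 0.37 (SE, edgeR adjusted p = 0.315). Cdk1, the kinase that cyclin B activates (ENSRNOG00000000632, chromosome 20, 20576377 to 20591549), measured 85.4, 82.4 and 85.0 FPKM in HCC and 64.7, 97.7 and 28.1 FPKM in TAE. Its log2 change was -0.52 ± 0.32 (edgeR adjusted p = 0.359), with 2 of 3 TAE libraries below every HCC library and library 2 above them in FPKM. Ccna2, the S phase and mitosis cyclin A2, measured 52.8, 44.4 and 43.4 FPKM in HCC and 39.3, 49.6 and 13.8 FPKM in TAE. Its gene model lies within that of Exosc9 on the other strand, and whether counting used strand is not given. Foxm1, the forkhead factor that activates late cell cycle promoters, measured 18.9 ± 0.448 FPKM in HCC (mean ± SD, n = 3) and 16.4, 25.1 and 6.39 FPKM in TAE. Cdc25c, the phosphatase that switches CDK1 on, had 12.1 ± 0.318 FPKM in HCC and 9.91, 15.1 and 4.82 in TAE. The 5 genes of this group had median differences from HCC of -0.38, 0.01 and -1.44 in TAE libraries 1, 2 and 3 on the log2 scale.

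Mitotic kinases and checkpoint genes followed the same order of libraries. Plk1, the Polo-like kinase of spindle assembly and cytokinesis (ENSRNOG00000018815, chromosome 1, 192115966 to 192125989), measured 34.1, 33.7 and 36.1 FPKM in HCC and 26.9, 37.8 and 8.67 FPKM in TAE. Its HCC libraries lay close together, and TAE library 3 stood at 0.275 of their mean in CPM (log2 change -0.62 ± 0.39, edgeR adjusted p = 0.362). Ttk, the checkpoint kinase MPS1, measured 24.4, 23.3 and 24.1 FPKM in HCC and 16.9, 25.5 and 7.6 FPKM in TAE. It had the smallest adjusted p of the members (log2 change -0.63 ± 0.31, edgeR adjusted p = 0.276). Aurka, the centrosomal Aurora kinase, measured 28.1 ± 1.55 FPKM in HCC and 21.9, 33.4 and 9.68 FPKM in TAE. Bub1 and Bub1b, which hold anaphase back until chromosomes are attached, stood at 0.357 and 0.335 of the HCC mean in TAE library 3. Melk, a kinase of the same expression programme, stood at 0.414. The 6 genes had median differences of -0.43, -0.08 and -1.5 in TAE libraries 1, 2 and 3.

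Cdc20 and Ube2c, which activate the anaphase-promoting complex and supply its ubiquitin, had the lowest group medians in both TAE libraries 1 and 3 (-0.63 and -1.79). Cdc20 (ENSRNOG00000028415, chromosome 5, 137260739 to 137265015), whose promoter is printed above, measured 57.7, 58.8 and 59.5 FPKM in HCC and 40.6, 70.0 and 14.2 FPKM in TAE. The TAE libraries thus spanned the HCC level from both sides, and the log2 change was -0.62 ± 0.42 (edgeR adjusted p = 0.389). Ube2c measured 24.6 ± 0.275 FPKM in HCC and 16.9, 27.7 and 6.95 FPKM in TAE.

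Chromosomal passenger and kinetochore genes were the least reduced groups in TAE library 3, with medians of -1.22 and -1.23. Incenp, the scaffold of the passenger complex (ENSRNOG00000032929, chromosome 1, 225925773 to 225952516), measured 48.1, 44.2 and 47.7 FPKM in HCC and 30.5, 53.9 and 13.2 FPKM in TAE. It was the lowest of all 33 members in TAE library 1 relative to HCC (-0.7 on the log2 scale). Its partner Aurkb, the Aurora kinase of the complex, measured 20.2, 18.9 and 18.7 FPKM in HCC and 18.0, 22.5 and 8.66 FPKM in TAE, close to HCC in library 1. Birc5, which encodes survivin, measured 52.9 ± 0.252 FPKM in HCC and 49.3, 71.6 and 21.7 FPKM in TAE. Cdca8, the borealin gene, stood at 0.4 of the HCC mean in TAE library 3. Ndc80 and Nuf2, which together form the microtubule-binding rod of the kinetochore, measured 15.2 ± 0.707 and 25.2 ± 1.36 FPKM in HCC and stood at 0.479 and 0.52 of the HCC mean in CPM in TAE library 3. Nuf2 (ENSRNOG00000002711, chromosome 13, 87818391 to 87847263) was the least reduced member there. Cenpe, the kinetochore motor, and Cenpf, a large kinetochore protein, stood lower, at 0.379 and 0.337.

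Spindle and cytokinesis genes included the member with the largest difference. Anln, the actin-binding anillin of the cleavage furrow (ENSRNOG00000014343, chromosome 8, 23337621 to 23390773), measured 41.5, 29.6 and 31.1 FPKM in HCC and 24.8, 31.1 and 6.51 FPKM in TAE. TAE library 3 stood at 0.211 of the HCC mean in CPM, HCC library 1 was the highest, and the log2 change was -0.83 ± 0.44 (edgeR adjusted p = 0.297). Kif23 and Prc1, the motor and the microtubule bundler of the spindle midzone, stood at 0.307 and 0.333 of the HCC mean in TAE library 3. Kif20a, another midzone motor, stood at 0.37, and Ect2, which activates RhoA at the furrow, at 0.348. Kif20a shares 1910 bases of its gene model with Cdc23 on the other strand. Tpx2, the microtubule nucleator that activates Aurora A, measured 65.6, 65.4 and 63.1 FPKM in HCC and 46.5, 70.2 and 17.4 FPKM in TAE. Its log2 change was -0.65 ± 0.37 (edgeR adjusted p = 0.32), with a tight HCC group and TAE libraries on both sides of it in FPKM. Kif11, the motor that pushes spindle poles apart, and Kif2c, a microtubule depolymerase, stood at 0.348 and 0.35 in TAE library 3, while Kif4a, a chromosome-bound motor, and Nusap1, a spindle-associated protein, stood at 0.392 and 0.427.

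Top2a and Mki67, the usual histological markers of proliferation, differed in how far they separated the groups. Top2a, the topoisomerase that untangles replicated chromosomes (ENSRNOG00000053047, chromosome 10, 86901007 to 86932154), had the highest mean FPKM of the members in HCC and measured 96.8, 90.1 and 93.7 FPKM in HCC and 68.3, 95.8 and 25.7 FPKM in TAE. Its log2 change was -0.68 ± 0.35 (edgeR adjusted p = 0.29). Mki67, which encodes the Ki-67 protein that coats mitotic chromosomes (ENSRNOG00000028137, chromosome 1, 207993895 to 208020454), measured 34.3, 26.7 and 26.2 FPKM in HCC and 32.8, 31.9 and 13.4 FPKM in TAE. Here 2 TAE libraries lay inside the HCC range and only library 3 was low, and Mki67 was the 1 member above the HCC mean in TAE library 1 (0.09 on the log2 scale). Its log2 change was -0.25 ± 0.27 (edgeR adjusted p = 0.592). Coordinates are those of the deposited table. Gene ends on its chromosome 1 reach 282724300, and whether they fit the build named in the submitters' processing notes, mRatBN7.2, was not settled.

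**Figure D3:**
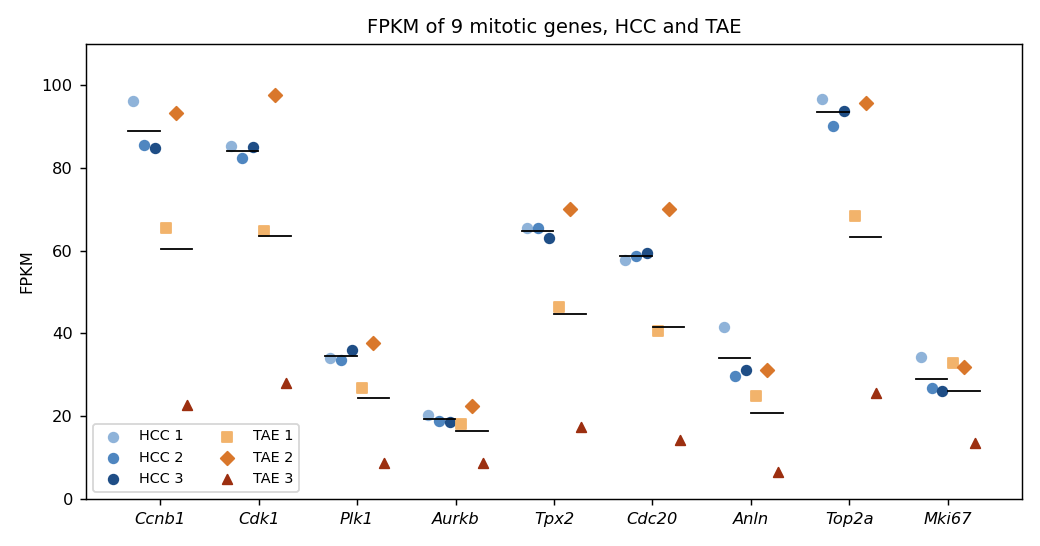
FPKM (y axis, linear from 0) of 9 members in each library; circles are HCC libraries, the square, diamond and triangle are TAE libraries 1, 2 and 3, and bars are group means. Top2a has the highest HCC mean and TAE library 3 is the lowest for each gene, while TAE library 2 lies above all 3 HCC libraries for Cdk1, Plk1, Aurkb, Tpx2 and Cdc20.

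Leaving out single TAE libraries moved the members in opposite directions. Without TAE replicate 3 the median log2 change over members was -0.16, 29 of 33 were negative and 0 passed in edgeR (3.51% of all genes were called lower there), with 2 at an unadjusted p under 0.05 (6.06%, beside 25.5% of all genes). DESeq2 called 0 there as well (6.22% of all genes). The 4 positive members were Birc5, Ndc80, Kif4a and Mki67, at 0.06, 0.02, 0.01 and 0.04. Without TAE replicate 2 the median was -0.8, and 21 members had an unadjusted p under 0.05 (63.6%, beside 39.9% of all genes). In that fit Ttk, Incenp and Ube2c passed in edgeR with log2 changes of -0.98, -1.11 and -1.06 (adjusted p = 0.0397, 0.0339 and 0.043), which is 9.09% of the members beside 9.56% of all genes. DESeq2 called 17 of 33 without TAE replicate 2 (51.5%), beside 11.6% of all genes. Without TAE replicate 1 both tools called 0, beside 0.00681% of all genes in edgeR and 0.623% in DESeq2.

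Other genes of the cell cycle were read from 8 lists, which hold 167 distinct tested genes. Over all of them edgeR called 0 lower, beside 0.31% of all genes, and 1 higher (0.599%), beside 2.7% of all genes. All 31 other kinetochore and centromere genes had log2 changes at or below 0 (median -0.43), from Mis18a, a factor that loads the centromeric histone, at -0.62 ± 0.28 to Spc24, a subunit of the same complex as Ndc80, at 0.00 ± 0.29. All 27 other spindle and cytokinesis genes were negative (median -0.52), from Kif20b at -0.72 ± 0.34 to the centriole gene Stil at -0.20 ± 0.38. The 15 condensin and cohesin genes were negative too (median -0.36), from the condensin subunit Ncapg at -0.63 ± 0.36 to the cohesin subunit Stag1 at -0.18 ± 0.15. For the anaphase-promoting complex 11 of 15 genes were negative (median -0.16), from Fbxo5, its inhibitor EMI1, at -0.56 ± 0.25 to the subunit Anapc13 at 0.42 ± 0.17. All 31 DNA replication genes were negative (median -0.43), from the helicase subunit Mcm7 at -0.77 ± 0.33 to Gins1 at -0.09 ± 0.23, and their TAE libraries had medians of -0.44, 0.05 and -1.11. Without TAE replicate 3 the edgeR medians were -0.13 for other kinetochore and centromere genes, -0.2 for other spindle and cytokinesis genes and -0.15 for condensin and cohesin. They were -0.07 for the anaphase-promoting complex and -0.15 for DNA replication in that fit. Signs of single genes did not hold throughout. Among the genes named here, Spc24 was positive with RLE, upper-quartile and library-total scaling, and Spc24, Stil and Gins1 were positive without TAE replicate 3. Some genes of these lists that are not named also lay above the HCC mean in both TAE libraries 1 and 2.

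The 1 gene of these lists that passed was an inhibitor of the cycle. Cdkn1c, the CDK inhibitor p57, rose from 0.24, 0.29 and 0.21 FPKM in HCC to 1.14, 0.77 and 1.15 FPKM in TAE, with a fitted log2 change of 2.01 ± 0.39 and an adjusted p of 0.0471 in edgeR. It had only 6 to 8 reads per HCC library and 26 to 39 per TAE library. The call was lost without HCC replicate 1, 2 or 3 (edgeR adjusted p = 0.205, 0.149 and 0.228) and without TAE replicate 1 (0.152), and held without TAE replicate 2 or 3 (0.00878 and 0.0449). With limma on log2(FPKM + 1) it was 0.0703 with a filter on low values and 0.0461 without one, and with a replicate block in edgeR 0.143. In DESeq2 it was 0.00383 on all libraries and 0.00152 to 0.0685 on leaving out each in turn. Cdkn1a, the p53-induced inhibitor p21, measured 40.7, 43.0 and 44.1 FPKM in HCC and 41.4, 69.8 and 105 FPKM in TAE (log2 change 0.75 ± 0.36, edgeR adjusted p = 0.261). On the log2 scale it differed from the HCC mean by -0.13, 0.51 and 1.44 in TAE libraries 1, 2 and 3. The mitosis genes had medians of -0.37, -0.04 and -1.51 there, and a link was not tested. Cdkn2a, the INK4a/ARF tumour suppressor locus, measured 33.6, 32.1 and 37.8 FPKM in HCC and 13.4, 34.9 and 8.95 FPKM in TAE, with a log2 change of -0.97 ± 0.40 and an adjusted p of 0.209 in edgeR. Of 17 G1 cyclin, CDK and inhibitor genes 12 were negative (median -0.28). Among 17 DREAM, MYB and E2F genes 12 were negative (median -0.20), with Mybl2, the B-MYB activator of mitotic promoters, at 49.9 ± 1.97 FPKM in HCC and 26.4, 54.5 and 11.3 FPKM in TAE (log2 change -0.82 ± 0.42, edgeR adjusted p = 0.285). Rbl2, the p130 pocket protein of the repressive DREAM complex, measured 10.4, 10.4 and 9.04 FPKM in HCC and 18.4, 13.5 and 19.7 FPKM in TAE, at a log2 change of 0.77 ± 0.22 (edgeR adjusted p = 0.105). Of 15 p53 target genes 11 were positive (median 0.21), and the lowest was Pmaip1, the apoptosis gene NOXA, at -0.56 ± 0.22. Without TAE replicate 3 the edgeR medians were -0.06 for the G1 list, -0.05 for the DREAM, MYB and E2F list and 0.18 for p53 targets.

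**Figure D4:**
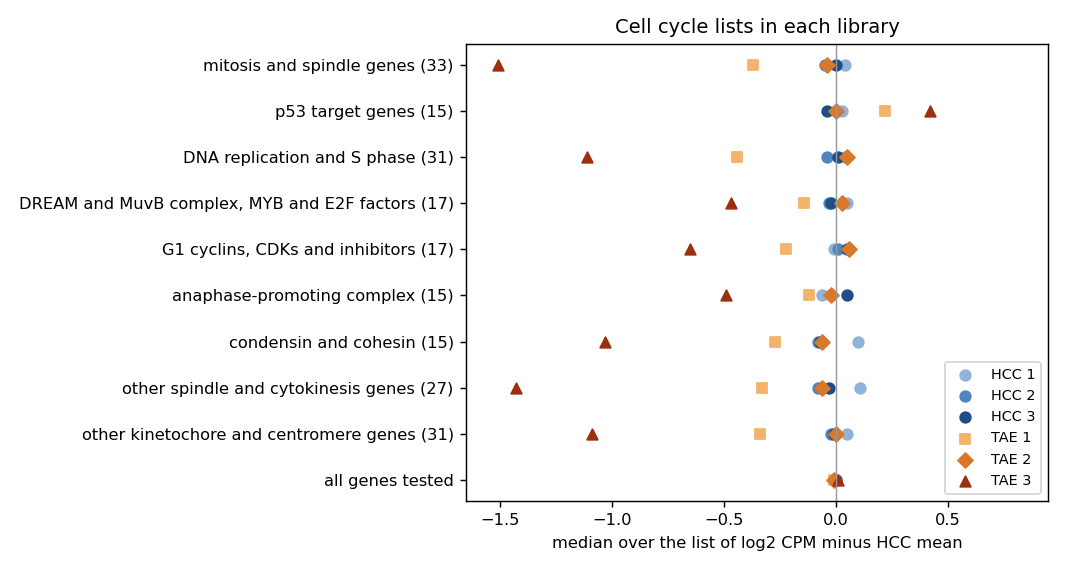
Median over each cell cycle list (rows, tested genes in brackets) of log2 CPM minus the HCC mean (x axis); circles are HCC, the square, diamond and triangle are TAE libraries 1, 2 and 3. TAE library 3 is lowest in all lists but p53 targets, at -1.51 for mitosis and spindle genes, -1.43 for other spindle genes and 0.42 for p53 targets, while all genes lie near 0.

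Markers of other cell types also differed between the TAE libraries. Summed over 14 hepatocyte markers the level was 23706 to 29404 FPKM in HCC. In TAE libraries 1, 2 and 3 it was 14000, 10386 and 30514 FPKM. The sum in TAE library 3, where the mitosis genes were lowest, was thus just above that of every HCC library. There 10 of the 14 markers lay above the HCC mean. Their median log2 difference was 0.32, beside -0.77 and -1.62 in TAE libraries 1 and 2. Summed macrophage and monocyte markers (13 genes) were 1347 to 1594 FPKM in HCC and 5152, 3972 and 5613 in TAE. T and NK cell markers (11 genes) were 164 to 236 FPKM in HCC and 299, 316 and 504 in TAE, although their median difference from the HCC mean in TAE library 1 was -0.27 on the log2 scale. B and plasma cell markers (8 genes) were 14.2 to 21.5 and then 39.7, 37.1 and 146. Erythroid precursor markers (9 genes) were 326 to 463 FPKM in HCC and 399, 301 and 989 in TAE. Stellate cell and fibroblast markers (10 genes) were 479 to 759 FPKM in HCC and 3116, 1188 and 1511 in TAE. Cholangiocyte markers (8 genes) were 21.2 to 62.2 FPKM in HCC and 258, 113 and 200 in TAE, neutrophil markers (8 genes) 27.0 to 57.1 and then 131, 57.1 and 141, and endothelial markers (10 genes) 77.6 to 89.8 and then 137, 84.3 and 149. Oncofetal tumour markers (5 genes) were 20.1 to 22.2 FPKM in HCC and 22.4, 20.5 and 14.5 in TAE. The median log2 difference over the 4 of them that were tested was 0.94, 0.22 and 0.95 in TAE libraries 1, 2 and 3, and 3 of the 4 lay above the HCC mean in library 3, where the sum was lowest. No marker was at 0 in all libraries, but some were near the floor. Fewer than 10 reads in at least 1 library were counted for 5 of 8 neutrophil and 5 of 8 B and plasma cell markers. The same held for 2 erythroid precursor markers, 1 cholangiocyte marker and 1 oncofetal marker. Genes of the mitochondrial chromosome took 6.1% to 6.17% of reads in HCC and 5.99%, 6.14% and 5.81% in TAE, and ribosomal protein genes 3.24% to 3.27% and then 3.34%, 3.87% and 2.8%. The part of these differences in the levels of the mitosis genes was not tested.

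**Figure D5:**
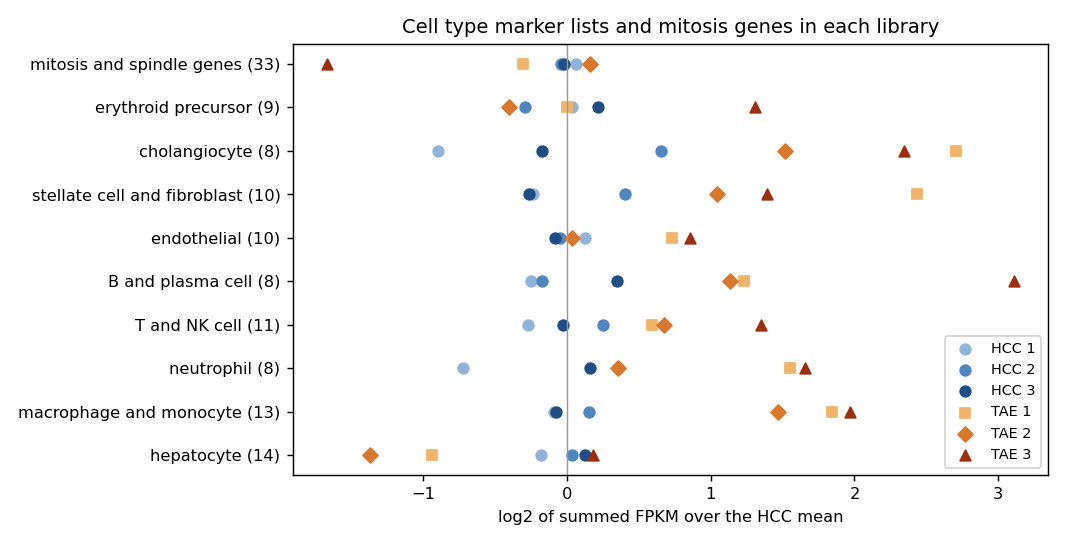
Summed FPKM of each marker list and of the mitosis genes (rows, genes in brackets) as log2 of the ratio to the HCC mean (x axis); circles are HCC, the square, diamond and triangle are TAE libraries 1, 2 and 3. TAE library 3 has the lowest mitosis genes, and its summed hepatocyte markers lie just above HCC while the sums of TAE libraries 1 and 2 lie below.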

How the data were processed

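Tissue RNA was isolated with TRIzol, selected for poly(A) and sequenced from strand-marked libraries as paired ends, per the labels' protocols. The authors deposited 1 table of 6 libraries, which per the file headers gives each gene's count and its FPKM. The deposited FPKM values equal the count divided by exon length and by the library's total (largest difference 0.005). Per the submitters' processing notes the build was mRatBN7.2. Aligner, counting tool and use of strand: not given in the sources used here.

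Counts were tested with edgeR 4.0.16 (R 4.3.3, TMM, filterByExpr, quasi-likelihood, two-sided, no block), TAE against HCC over all 6 libraries. Benjamini-Hochberg adjustment covered the 14499 genes tested, and 0.05 was the threshold. Standard errors are the absolute log2 change over the square root of F. Levels per library are log2 CPM with a prior count of 2. DESeq2 1.42.0, limma 3.58.1 on log2(FPKM + 1), other scalings and filters and leaving out each library were alternatives. The edgeR step was tested on simulated data, with the same spread between replicates for every gene (coefficient of variation 0.24 beyond counting noise). It called 52.5% of genes with a 2-fold change, 97.5% of those with a 4-fold change and 0.0697% of unchanged genes. Within TAE the members had a wider median spread than all tested genes, so these shares may not hold for them.

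The 34 members and all lists were chosen with earlier results of these data known. All members are named, and of each list every gene that passed plus its largest and smallest log2 change. Replicates differed by more than counting noise (chi-square over its degrees of freedom, 5.5 to 194). Libraries with the same replicate number did not deviate together (r = 0.1, -0.209 and 0.0335 across genes), so the numbers were not taken as pairs.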

Additional observations from a re-analysis of the deposited data

How the results depend on the processing

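All 33 members kept a negative log2 change under every scaling, filter, pseudocount and tool tried on all 6 libraries, with medians from -0.63 with the replicate block to -0.41 with library totals, and 0 were called either way. The replicate block called 0 genes of the whole table, 0 members among them, and the same-numbered libraries are not shown to be pairs. Leaving out each library in turn gave medians of -0.8 to -0.16 in edgeR and -0.82 to -0.19 in DESeq2 (an alternative chosen after seeing the data), and 0 to 3 and 0 to 17 members called lower, the highest counts without TAE replicate 2. The causes were not tested. In edgeR and then DESeq2, leaving out libraries gave ranges of -0.59 to 0.06 and -0.6 to 0.04 for Birc5, -0.48 to 0.02 and -0.49 to -0.01 for Ndc80, -0.57 to 0.01 and -0.58 to -0.01 for Kif4a, and -0.45 to 0.04 and -0.46 to 0.01 for Mki67, positive only without TAE replicate 3. For other genes they were -0.44 to 0.18 and -0.46 to 0.16 for Stil, -0.28 to 0.11 and -0.3 to 0.09 for Gins1, and -0.22 to 0.28 and -0.23 to 0.26 for Spc24 (0.05 in DESeq2 without HCC replicate 1). Spc24 stood at 0.00 with RLE scaling, 0.09 with library totals, 0.01 without a count filter and 0.04 with upper-quartile scaling. Other cell cycle genes called lower numbered 0 to 40 in edgeR and 0 to 67 in DESeq2 on leaving out a library, the highest without TAE replicate 2 (24% and 40.1% of the lists, beside 9.56% and 11.6% of all genes). Those called higher numbered 0 to 7 and 0 to 10 (4.19% and 5.99% without TAE replicate 2, beside 14.6% and 14.8% of all genes), with 3 in DESeq2, 3 with library totals and 0 with the replicate block on all libraries. The per-library settings were also chosen after seeing the data. The median over members in TAE library 1 was -0.28 with library totals, that in TAE library 2 was 0.02 with upper-quartile scaling and 0.16 with library totals, and that in TAE library 3 was -1.64 with library totals. With library totals the median of all genes was 0.19 in TAE library 2 and -0.13 in TAE library 3, beside -0.01 and 0.01 with TMM. The members' medians relative to all genes were -0.36, -0.04 and -1.51 in TAE libraries 1, 2 and 3 under each scaling. Members with all TAE libraries below all HCC libraries numbered 7 with upper-quartile scaling, 0 with library totals and 12 to 30 on leaving out a library, where the share of all genes was 15.9% to 28.5%, and the 30 (90.9%) came without TAE replicate 2, beside 28.5%. With 3 libraries per group, depth limits Cdkn1c, at 6 to 39 reads per library, more than the members, at 257 or more.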
